A study of Mus musculus with 23 samples.

Results

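The genes described here are 10 factors of mitochondrial fission: Mtfr2, Mtfr1, Mtfr1l, Mtfp1, Dnm1l, Fis1, Mff, Mief1, Mief2 and Gdap1. They were found by symbol among the 56196 genes of each of 2 count tables, and all 10 were present once in both. Mtfr2 was selected on its measured het and WT levels in both fractions of the oocytes; the others are listed fission factors. Its oocyte values are therefore a description without a test, and counts of called genes in oocytes cover the other 9.

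RNA was read from mouse germinal vesicle (GV) oocytes, which are fully grown and held in meiotic prophase, and from embryos of the first cleavage. The oocyte groups were the Eif4enif1+/- (het) translatome, WT translatome, het transcriptome and WT transcriptome, with 2 libraries each. The translatome is mRNA captured on ribosomes with RiboLace, the transcriptome is mRNA from direct lysis, and each oocyte sample gave 1 library of both kinds. The embryo groups were het embryos arrested at 1 cell after 24 h of culture in vitro, het 1-cell, WT 1-cell, het 2-cell and WT 2-cell embryos, with 3 libraries each. The 2-cell embryos had also been cultured for 24 h and the other 1-cell embryos had not, so stage and culture cannot be told apart. Eif4enif1 encodes 4E-T, a partner of the cap-binding protein eIF4E in cytoplasmic RNA granules. The labels give no strain, age or number of animals, do not say how many oocytes or embryos made a library, and do not tell if an embryo was labelled by its own or by the maternal genotype.

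Mitochondrial fission is carried out by Drp1, the dynamin-like GTPase made from Dnm1l, which is recruited from the cytosol and constricts the outer membrane. The outer-membrane proteins encoded by Mff, Fis1, Mief1 and Mief2 bind it, the last pair being the adaptors also called MiD proteins. Mouse oocytes that lack Drp1 are known to have clumped mitochondria. Mtfr2, Mtfr1 and Mtfr1l form the small family of mitochondrial fission regulators, Mtfp1 encodes an inner-membrane fission protein, and Gdap1 encodes an outer-membrane protein that promotes fission and is mutated in a peripheral neuropathy.

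The 3′ ends of 6 of these mRNAs are shown because stored oocyte mRNAs are known to be controlled through elements near the poly(A) signal. Each line gives 30 bases around the last poly(A) signal (AATAAA or ATTAAA) within the final 100 bases of the annotated principal transcript in GENCODE M21 on GRCm38 (mm10). Capitals mark that signal and, in Mtfr2, a cytoplasmic polyadenylation element (CPE, searched as TTTTAT or TTTTAAT on the mRNA strand).
Mtfr2 (chr10:20361271-20361300, plus strand): taatgtagaTTTTATAATAAAtggatcttt
Mtfr1 (chr3:19220765-19220794, plus strand): ttaatattttaaAATAAAgtaagctgttga
Mtfr1l (chr4:134525567-134525596, minus strand): gcattacctgatATTAAAtgaaggatttgg
Dnm1l (chr16:16312246-16312275, minus strand): atgttctatgtaAATAAAaatgctggtgtg
Fis1 (chr5:136966197-136966226, plus strand): gcaatgagtgtaAATAAAattgggccgtgg
Mff (chr1:82752361-82752390, plus strand): tgtagtgtatttAATAAActgtcaaccaaa

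In Mtfr2 the CPE ended directly before the poly(A) signal, with 0 bases between them and no shared base. It started 25 bases before the annotated end of a 3′UTR of 764 bases. Of the 10 genes, 1 had these letters in the window, against 17.9% of 19373 genes with a 3′UTR of at least 100 bases. A CPE directly before a poly(A) signal was found in 0.35% of those genes. These are matches of letters to an annotated end, which may not be the end used in oocytes, and the search was added with the results known.

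The depth of the libraries was 3.62 to 50.5 M counts in oocytes and 5.60 to 40.4 M in embryos. The lowest in oocytes was het transcriptome library 1, 1 of the 2 libraries behind each het transcriptome value. The next lowest was WT translatome library 2, with 17.8 M. All 16 oocyte markers had counts in each GV library. Eif4enif1 averaged 91.7 ± 6.24 CPM in the het transcriptome, against 219 ± 3.56 CPM in the WT transcriptome (SD, n = 2 each; CPM is counts per M after TMM scaling). In embryos Eif4enif1 averaged 70.4 CPM in het and 153 CPM in WT 1-cell libraries, and 45.3 and 68.65 CPM at the 2-cell stage. Arrested libraries ran from 28.5 to 109.6 CPM. On the deposited totals, without TMM scaling, het 1-cell libraries 1 and 3 had 145.6 and 148.7 CPM. These lay inside the WT 1-cell range of 106.5 to 159.2 CPM. Markers of granulosa and cumulus cells, the somatic cells around the oocyte, summed to 1163 and 1574 CPM in the het translatome, against 583 and 854 CPM in the WT translatome. In the transcriptome they summed to 776 and 569 CPM in het samples, against 387 and 627 CPM in WT, with at most 2 of 23 markers at 0 in any GV library. Markers of the oviduct summed to 48.3 and 30.5 CPM in the het translatome, against 8.002 and 14.5 CPM in the WT translatome, and to 25.5 and 15.8 CPM in the het transcriptome, against 4.65 and 6.43 CPM in the WT transcriptome, with 1 to 3 of 7 at 0 in each library. The share of counts in mitochondrial genes was 0.657% to 1.32% in het and 0.158% to 0.311% in WT GV libraries. Het 1-cell libraries 1 and 3 stood apart. Their 100 most abundant genes took 6.34% and 5.53% of counts, against 32.1% to 38.1% in the other 1-cell libraries. Their oocyte markers summed to 2170 and 1792 CPM, against 14279 to 16667 CPM in the others. Arrested library 1 also differed from the other arrested libraries, with 2-cell-stage markers summing to 494 CPM there and to 3365 and 2508 CPM in libraries 2 and 3. In bulk samples, less RNA of a kind and fewer cells that carry it cannot be told apart.

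Mtfr2 lay at chr10:20347770-20361304, plus strand. It was lower in het than in WT ribosome-bound mRNA and higher in het than in WT total mRNA. It had 10.1 and 10.6 CPM in the het translatome, against 35.5 and 40.9 CPM in the WT translatome. In the transcriptome it had 108 and 103 CPM in het samples, against 57.6 and 66.5 CPM in WT. The groups did not overlap in either fraction. The log2 difference, het over WT, was -1.88 (SE 0.24) in the translatome and 0.77 (SE 0.23) in the transcriptome, and the log2 difference of these differences was -2.65 (SE 0.34). Raw counts behind the values were 459 and 261 in the het translatome, 1478 and 640 in the WT translatome, 432 and 2141 in the het transcriptome and 2552 and 2852 in the WT transcriptome.

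Within oocyte samples, the Mtfr2 translatome over transcriptome ratio was 0.0934 and 0.103 in het, against 0.617 and 0.616 in WT. The fitted log2 ratio of -3.35 in het stood at rank 46 from the lowest of 22409 genes, and the -0.70 in WT at the percentile 21.7. These places follow from values used to select Mtfr2 and describe it only. The granulosa sums given above were higher in het in the translatome, where Mtfr2 was lower. Oviduct sums and mitochondrial shares were higher in het in both fractions, without overlap. The part of these in the Mtfr2 values was not tested.

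**Figure D1:**
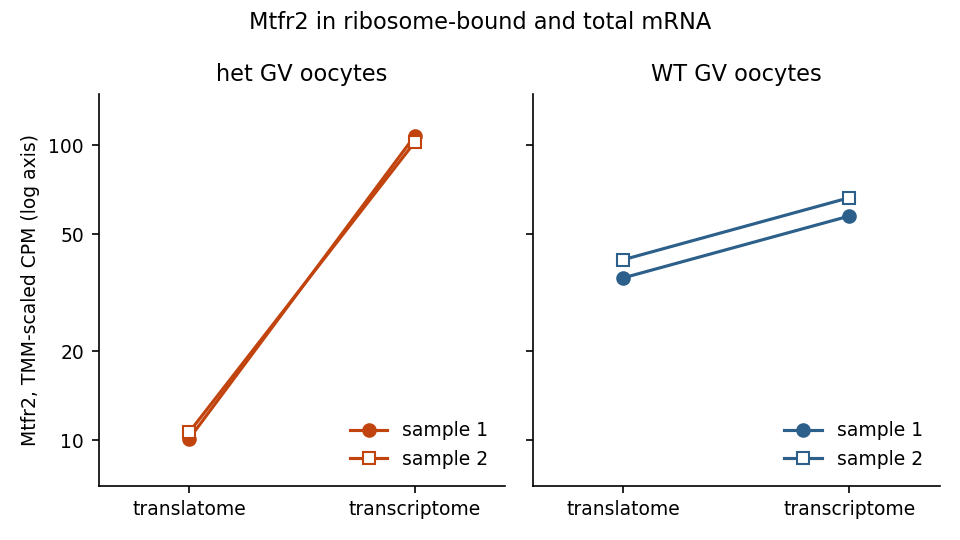
Mtfr2 level in TMM-scaled CPM on a log axis in the translatome and transcriptome libraries of the same oocyte sample, joined by a line, in het (left) and WT (right). Het samples run between about 10.1 and 108 CPM, WT samples between 35.5 and 66.5 CPM.

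Per kb of the union of annotated exons, Mtfr2 was the highest of the 10 genes in the het transcriptome, at 49.3 CPM per kb. It was rank 7 in the het translatome, at 4.84 CPM per kb. In WT it was rank 5 in the translatome, at 17.9 CPM per kb, and rank 4 in the transcriptome, at 29.0 CPM per kb. Its libraries did not overlap those of its neighbours in either het fraction. In the WT translatome they overlapped those of Mtfr1 (18.3 CPM per kb) and Fis1 (16.3 CPM per kb), and in the WT transcriptome those of Fis1 (29.0 CPM per kb). Mff held the highest level per kb in both WT fractions and in the het translatome. The order between genes depends on the length used. The annotated exons of Mff cover 9757 bases and its principal transcript 1894, against 2140 and 1991 bases for Mtfr2. Without a length, Mff averaged 399.5 CPM in the het transcriptome, against 105.5 CPM for Mtfr2.

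The genes whose log levels over the 8 GV libraries were most like those of Mtfr2, by Pearson correlation among 7544 genes of at least 10 CPM, were Psmb7 (r 0.97), a proteasome subunit, Mysm1 (r 0.97), a histone deubiquitinase, Zbtb21 (r 0.96), a zinc finger protein, and Nek6 (r 0.96), a mitotic kinase. Over the 15 embryo libraries their correlations with Mtfr2 were -0.86 for Psmb7, -0.27 for Mysm1, 0.90 for Zbtb21 and -0.85 for Nek6. Psmb7 had 92.0 CPM in the het translatome, against 195 CPM in the WT translatome, and 351 CPM in the het transcriptome, against 243 CPM in the WT transcriptome. The points share libraries and fractions, so these values describe likeness only.

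Of the other 9 genes, 0 were called between genotypes in the translatome by the quasi-likelihood test of edgeR, where called means an adjusted p under 0.05 over all 22409 genes tested. The share of all genes called was 4.61%. The median log2 difference was -0.15 over the 9 genes and 0.04 over all genes tested. Mtfr1, the founder of the Mtfr family, came nearest below WT, with 49.3 and 48.4 CPM in het samples and 77.6 and 82.1 CPM in WT. The groups did not overlap, the log2 difference was -0.71 (SE 0.24), and the adjusted p was 0.106. With DESeq2 its adjusted p was 0.0483. Fis1, a tail-anchored outer-membrane protein, lay above WT, with 54.0 and 36.9 CPM in het samples and 21.2 and 34.6 CPM in WT (log2 0.71, SE 0.30, adjusted p = 0.185).

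No gene of the machinery around Drp1 was called between genotypes in the translatome. Dnm1l had 122 and 105 CPM in het samples and 127 and 124 CPM in WT (log2 -0.15, SE 0.23). Mff had 403 and 383 CPM in het samples and 463 and 413 CPM in WT (log2 -0.16, SE 0.25). Mtfr1l, Mief1 and Gdap1 had log2 differences of -0.13, -0.21 and -0.44, and none of the 5 was called. Mief2 and Mtfp1 were below 2 CPM in each GV library, with 0 to 62 counts. Their log2 differences in the translatome were 0.51 (SE 1.34) and 0.53 (SE 0.64), so only large changes could be detected at this depth.

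In the transcriptome 0 of the 9 were called, against 2.55% of all genes. Their median log2 difference was 0.00, and that of all genes tested -0.04. Mtfr1l had 145 and 120 CPM in het samples and 187 and 201 CPM in WT, the largest of the differences in size among members above 2 CPM (log2 -0.55, SE 0.23, adjusted p = 0.219). Mff had 416 and 383 CPM in het samples and 472 and 597 CPM in WT, without overlap (log2 -0.42, SE 0.25, adjusted p = 0.373). Dnm1l, Fis1, Mtfr1, Mief1 and Gdap1 lay between -0.23 and 0.20.

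**Figure D2:**
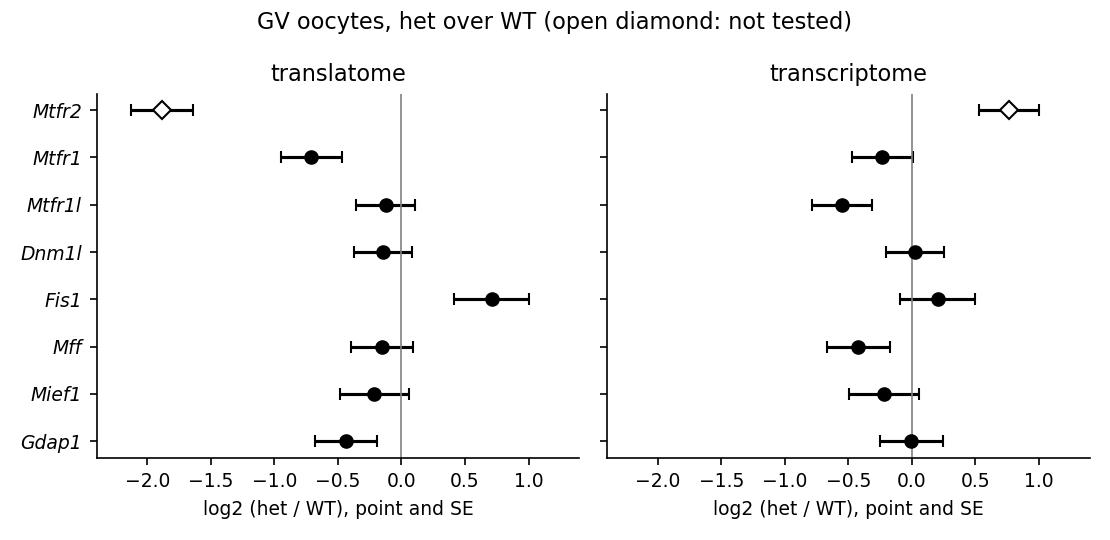
Log2 difference, het over WT, of 8 fission genes in GV oocytes with its SE (bars) in the translatome and the transcriptome; Mtfp1 and Mief2 are left out for low counts. Mtfr2 (open diamond, not tested) is at -1.88 in the translatome and 0.77 in the transcriptome, while the other 7 lie between -0.71 and 0.71.

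Between fractions 0 of the 9 were called in het oocytes, against 8.09% of all genes, and 0 of the 9 in WT oocytes, against 14.6% of all genes. Across the 7 other members above 2 CPM the translatome over transcriptome ratio of single samples ran from 0.603 to 1.43 in het and from 0.380 to 1.48 in WT. Dnm1l was above 1 in each sample, with 1.43 and 1.12 in het and 1.48 and 1.38 in WT. Its log2 ratio in WT was 0.52 (SE 0.23, adjusted p = 0.142). Fis1 had 1.01 and 0.603 in het and 0.380 and 0.789 in WT, where its fitted ratio was the lowest of the 7 (log2 -0.84, SE 0.30, adjusted p = 0.0718). In the second WT sample Mief1 (0.560) and Mff (0.691) were lower than Fis1. Fis1 passed at an adjusted p of 0.0417 without the low-count filter and of 0.0435 without WT translatome library 2.

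The difference of the fraction ratio between genotypes was called for 0 of the 9 genes, against 0.0134% of all genes, which is 3 genes, with 1999 at an unadjusted p under 0.05 and 7 called with the oocyte sample as a block for the paired fractions. The samples of Mtfr1l lay on opposite sides of 1, with ratios of 1.08 and 1.31 in het and 0.863 and 0.902 in WT, and the log2 difference was 0.43 (SE 0.33, adjusted p = 0.711). Mtfr1 had 0.659 and 0.754 in het and 1.08 and 0.904 in WT (log2 -0.48, SE 0.34, adjusted p = 0.681).

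**Figure D3:**
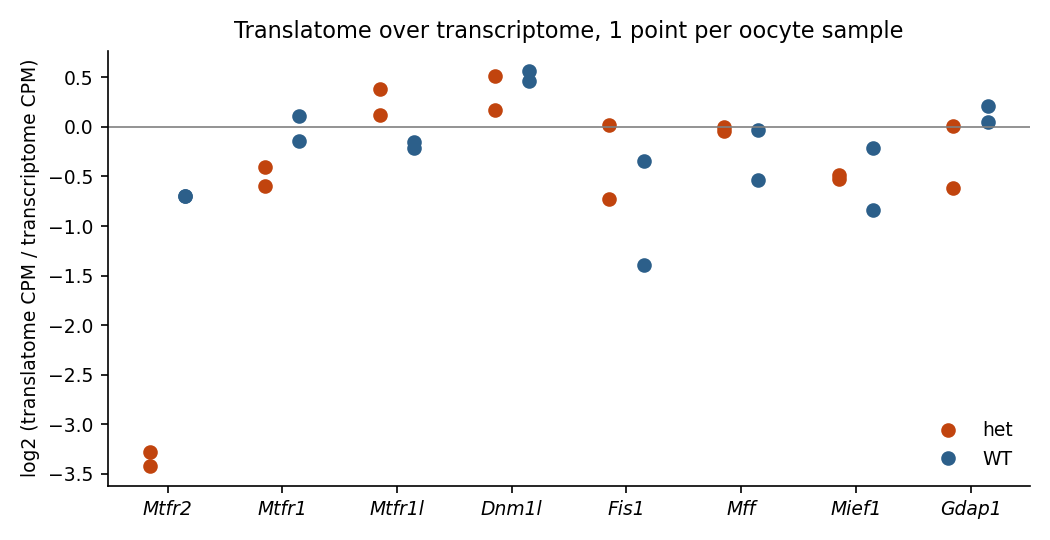
Log2 ratio of translatome over transcriptome CPM for 8 fission genes, 1 point per oocyte sample, het left of WT for each gene. Mtfr2 in het is at -3.42 and -3.28 and stands below each other point, the lowest of which is Fis1 in a WT sample at -1.40.

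In embryos Mtfr2 differed by stage, and its genotype groups overlapped at both stages. It had 102, 65.6 and 76.6 CPM in het 1-cell embryos, against 84.3, 78.0 and 106 CPM in WT 1-cell embryos. The log2 difference was -0.14 (SE 0.46, adjusted p = 1.00). At the 2-cell stage it had 36.1, 18.6 and 22.9 CPM in het samples, against 29.4, 25.7 and 36.5 CPM in WT (log2 -0.24, SE 0.46, adjusted p = 1.00). On the deposited totals in place of TMM scaling the 1-cell means were 142 CPM in het samples and 76.6 CPM in WT, so the order of the genotypes there depends on the scaling. Het 1-cell library 2 alone gave a log2 difference of -0.43. Fits with this library alone take their spread from the other groups and assume that the lone library varies like them.

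None of the 10 genes was called between genotypes in 1-cell embryos, where edgeR called 0% of 23656 genes, with 889 at an unadjusted p under 0.05 and 154 called by DESeq2. None was called in 2-cell embryos, where 0.00423% of all genes were, which is 1 gene, against 138 by DESeq2. Mff, the main receptor of Drp1 in many cells, had 148, 284 and 124 CPM in het 1-cell embryos, all below the 444, 422 and 358 CPM of WT 1-cell embryos (log2 -1.14, SE 0.65, adjusted p = 1.00). With het 1-cell library 2 alone its log2 difference was -0.51, and on the deposited totals the means were 267 CPM in het samples and 347 CPM in WT. A share of 2.0% of its exon length overlaps C430014B12Rik on the other strand. At the 2-cell stage it had 338, 273 and 80.0 CPM in het samples and 64.02, 74.4 and 105 CPM in WT (log2 1.51, SE 0.66, adjusted p = 0.858), and the groups overlapped through het library 3. Gdap1 had 129, 131 and 142 CPM in het 1-cell embryos, below the 182, 184 and 240 CPM of WT (log2 -0.59, SE 0.36, adjusted p = 1.00). On the deposited totals Gdap1 averaged 225 CPM in het samples and 173 CPM in WT.

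The called changes in embryos lay mainly between stages. In het embryos 4 of 10 genes were called between the 2-cell and 1-cell stages, against 36.7% of all genes, and in WT embryos 6 of 10, against 46.4% of all genes. All 4 of the het comparison were among the 6 of the WT comparison: Mtfr2 and Dnm1l fell, and Fis1 and Mief2 rose. In WT embryos Mff also fell and Mtfr1 rose. The median log2 change was 0.27 over the 10 genes and 0.36 over all genes in het, and 0.23 and 0.59 in WT. RLE scaling in place of TMM moved the median of all genes by 0.17 in both comparisons, and these 10 calls kept their direction.

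The sums of several marker lists and the mitochondrial share moved with stage. Oocyte markers summed to at most 1978 CPM in WT 2-cell libraries, against 14279 to 16607 CPM in WT 1-cell libraries. In het the oocyte sums of the stages overlapped. Markers of the 2-cell stage summed to 1082 to 1874 CPM in WT 2-cell libraries, against 324 to 366 CPM in WT 1-cell libraries. In het they summed to 1189 to 3547 CPM, against 223 to 357 CPM. Sperm sums were lower in het 2-cell than in het 1-cell libraries, and overlapped in WT. Sums do not tell which genes of a list moved, or if their RNA came from other cells or from the embryo. Blood markers summed to 91.4 to 155 CPM in het 2-cell libraries, against 0.448 to 2.65 CPM in het 1-cell libraries, and to 199.9 to 278 CPM in WT 2-cell libraries, against 0.0514 to 0.274 CPM in WT 1-cell libraries, with 3 to 6 of 7 at 0 in each library. Oviduct markers summed to 173.5 to 240.1 CPM in het 2-cell libraries, against 3.31 to 9.38 CPM in het 1-cell libraries, and to 198 to 300.1 CPM in WT 2-cell libraries, against 2.19 to 4.88 CPM in WT 1-cell libraries, with 0 to 5 of 7 at 0. Granulosa markers summed to 126 to 167 CPM in het 2-cell libraries, against 289.5 to 953 CPM in het 1-cell libraries, and to 134 to 166 CPM in WT 2-cell libraries, against 911.5 to 978 CPM in WT 1-cell libraries, with 4 to 15 of 23 at 0. The mitochondrial share was 13.5% to 19.8% in het 2-cell libraries, against 0.336% to 3.68% in het 1-cell libraries, and 9.23% to 10.2% in WT 2-cell libraries, against 2.35% to 2.58% in WT 1-cell libraries. The part of these in the stage changes was not tested.

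Mtfr2 fell to 25.9 ± 9.11 CPM in het 2-cell embryos, against 81.4 ± 18.6 CPM in het 1-cell embryos (SD, n = 3 each), a log2 change of -1.65 (SE 0.48, adjusted p = 0.0147). It fell to 30.5 ± 5.47 CPM in WT 2-cell embryos, against 89.4 ± 14.6 CPM in WT 1-cell embryos, a log2 change of -1.55 (SE 0.47, adjusted p = 0.0158). No library of the 2 stages overlapped in either genotype. The call was lost without het 1-cell library 1, het 2-cell library 2 or het 2-cell library 3 in het (adjusted p up to 0.0741), and without WT 1-cell library 3, WT 2-cell library 1 or WT 2-cell library 2 in WT (adjusted p up to 0.0649). With het 1-cell library 2 alone the het change was -1.49 (adjusted p = 0.211). On the deposited totals the het means were 24.3 CPM at the 2-cell and 142 CPM at the 1-cell stage.

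Dnm1l, which encodes the GTPase itself, fell in both genotypes. It had 56.6, 21.5 and 21.6 CPM in het 2-cell embryos, against 144, 187 and 137 CPM in het 1-cell embryos (log2 -2.23, SE 0.45, adjusted p = 0.00199). Levels were 43.5, 25.3 and 50.4 CPM in WT 2-cell embryos, against 174, 217 and 229 CPM in WT 1-cell embryos (log2 -2.38, SE 0.45, adjusted p = 8.96e-04). Both calls held in all 15 fits that left out 1 library. With het 1-cell library 2 alone the het change was -2.65 (adjusted p = 0.0203), and on the deposited totals the het means were 31.8 CPM at the 2-cell and 247 CPM at the 1-cell stage. A share of 4.7% of the Dnm1l exon length overlaps an antisense gene, Gm49521, and reads of the pair cannot be told apart without strand.

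The receptors moved in different directions. Fis1 rose to 43.1, 49.2 and 92.8 CPM in het 2-cell embryos, against 17.0, 15.2 and 20.2 CPM in het 1-cell embryos (log2 1.82, SE 0.53, adjusted p = 0.0155). In WT it rose to 99.1, 96.7 and 83.0 CPM, against 23.2, 17.3 and 13.3 CPM at the 1-cell stage (log2 2.38, SE 0.54, adjusted p = 0.00286). The het call was lost without het 1-cell library 1, without het 1-cell library 2 or without het 2-cell library 3 (adjusted p up to 0.0743), and with het 1-cell library 2 alone. The het means of Fis1 were closer on the deposited totals, at 55.3 CPM at the 2-cell and 30.2 CPM at the 1-cell stage. Mief2 had 472 counts in the WT 2-cell libraries and 0 counts in the 3 WT 1-cell libraries, which is at least 80.8-fold higher when the empty group is set to 3 counts in all. In het it had 162 counts at the 2-cell stage and 1 at the 1-cell stage, a ratio of 94.7 with a 95% exact counting interval of 16.8 to 3761. The het call was lost without het 1-cell library 2 and with it alone. Mief2 levels at the 2-cell stage were 1.57 to 5.58 CPM. The other MiD gene, Mief1, showed log2 changes of 0.61 in het (adjusted p = 0.436) and 0.79 in WT (adjusted p = 0.284). Its het means on the deposited totals were 15.9 CPM at the 2-cell and 20.6 CPM at the 1-cell stage, so the direction in het depends on the scaling.

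Mff fell in WT embryos to 64.02, 74.4 and 105 CPM at the 2-cell stage, against 444, 422 and 358 CPM at the 1-cell stage (log2 -2.33, SE 0.67, adjusted p = 0.0120). In het embryos its log2 change was 0.32 (SE 0.64, adjusted p = 0.719), with overlapping groups. On the deposited totals the het means were 214 CPM at the 2-cell and 267 CPM at the 1-cell stage, so the direction in het depends on the scaling. Without WT 2-cell library 1 the WT call was lost at an adjusted p of 0.0507. The difference between the stage changes, het minus WT, was 2.65 on the log2 scale (SE 0.92), with an unadjusted p of 0.0116 and an adjusted p of 1.00. Stage changes differed between genotypes for 0 of the 10 genes, against 0.00423% of all genes, which is 1 gene. For Mtfr2 the difference was -0.10 (SE 0.65).

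Mtfr1 averaged 97.4 ± 50.7 CPM in het 2-cell embryos, against 52.3 ± 6.41 CPM in het 1-cell embryos (log2 0.90, SE 0.50, adjusted p = 0.161). These means were 92.7 and 89.9 CPM on the deposited totals. It rose in WT to 113, 110 and 119 CPM at the 2-cell stage, against 40.6, 58.1 and 42.3 CPM at the 1-cell stage (log2 1.28, SE 0.50, adjusted p = 0.0483), a call that held in 5 of 15 fits leaving out 1 library. Mtfr2 and Mtfr1, of the same family, thus changed in opposite directions in WT embryos. Mtfr1l and Gdap1 had log2 changes of 0.23 and -0.48 in het and -0.33 and -0.82 in WT, none of them called. Mtfr1l averaged 82.6 CPM in het 2-cell and 123 CPM in het 1-cell embryos on the deposited totals, against the sign of its fitted change. Mtfp1 had counts in 3 of the 15 embryo libraries, at 30, 12 and 5 counts, and was at 0 in the others.

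**Figure D4:**
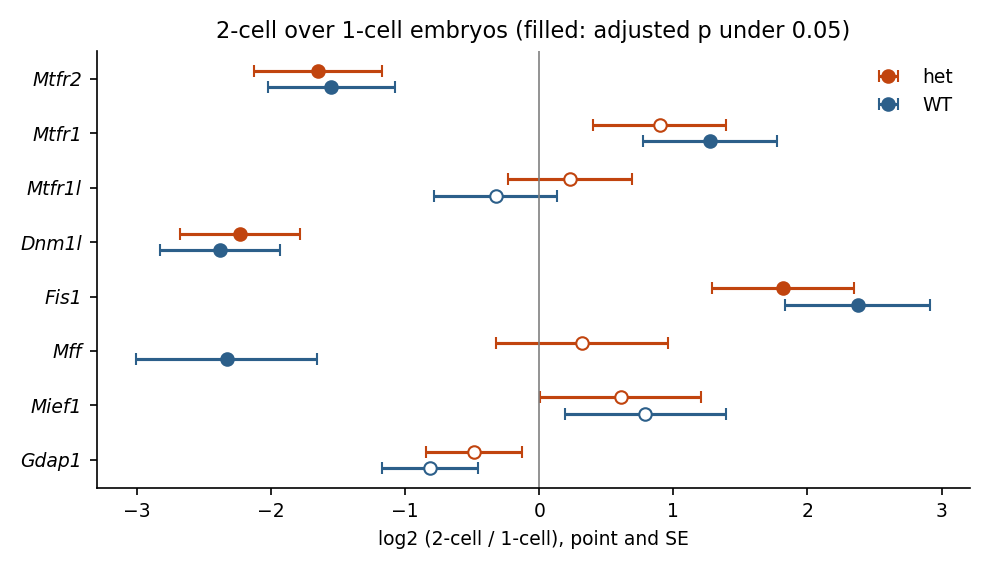
Log2 change, 2-cell over 1-cell, with its SE (bars) of 8 fission genes in het (upper point) and WT (lower point) embryos; filled points have an adjusted p under 0.05. Dnm1l is near -2.23 in het and -2.38 in WT, Fis1 is above 0 in both, and Mff is at 0.32 in het, where the sign turns on the deposited totals, and at -2.33 in WT.

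In the embryo libraries the order per kb of annotated exon, which depends on the length used as in oocytes, changed with stage. By its mean, the leading gene was Mtfr2 in het 1-cell embryos, at 38.0 CPM per kb, with libraries that overlapped those of Dnm1l (30.02 CPM per kb). In het 1-cell library 2 Dnm1l was higher, at 36.0 CPM per kb, against 30.6 CPM per kb for Mtfr2. The mean of Mff led in WT 1-cell embryos, at 41.8 CPM per kb, followed there by Mtfr2, also at 41.8 CPM per kb, and Dnm1l, at 39.8 CPM per kb, all overlapping. At the 2-cell stage Fis1 had the highest mean, at 36.0 CPM per kb in het and 54.2 CPM per kb in WT, while Dnm1l was at rank 7, at 6.39 CPM per kb in het and 7.63 CPM per kb in WT. In het Fis1 overlapped Mff (23.6 CPM per kb), and in library 1 both Mff (34.6 CPM per kb) and Mtfr1 (34.3 CPM per kb) were above Fis1 (25.1 CPM per kb). In WT Fis1 did not overlap Mtfr1, which came next at 26.0 CPM per kb. The GV and embryo tables were scaled separately, so the level of Mtfr2 in 1-cell embryos and its 29.0 CPM per kb in the WT GV transcriptome were not compared.

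Embryos arrested at 1 cell were compared with het 1-cell, het 2-cell and WT 1-cell embryos. Against het 1-cell embryos 1 of 10 genes was called, against 13.9% of all genes, and against het 2-cell embryos 2 of 10, against 8.40% of all genes. Against WT 1-cell embryos 1 of 10 was called, against 19.5% of all genes. The 3 comparisons share the arrested libraries. Median log2 differences of the 10 genes were 0.76, 0.49 and 0.59 in that order, and those of all genes 0.28, 0.00 and 0.46. The first of these depends on the scaling: on the deposited totals Mtfr1l averaged 94.7 CPM in arrested and 123 CPM in het 1-cell embryos, against 116 and 74.3 CPM with TMM.

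Per kb of annotated exon, Gdap1 had the highest mean of the 10 genes in arrested embryos, at 38.4 CPM per kb, overlapping Mff at 34.8 CPM per kb. This order depends on the length used, and without a length Mff averaged 339.9 CPM, against 296.9 CPM for Gdap1. In arrested library 3 Mff was higher, at 59.7 CPM per kb, against 40.5 CPM per kb for Gdap1. Gdap1 had 347, 230 and 313 CPM in arrested embryos, above the 129, 131 and 142 CPM of het 1-cell embryos (log2 1.15, SE 0.36, adjusted p = 0.0468). This call held in 2 of 15 fits leaving out 1 library, and was lost with het 1-cell library 2 alone (log2 0.98, adjusted p = 0.528). On the deposited totals the means were 236 CPM in arrested and 225 CPM in het 1-cell embryos. Gdap1 was also above the 133, 64.1 and 90.3 CPM of het 2-cell embryos (log2 1.63, SE 0.37, adjusted p = 0.0183), a call lost without het 2-cell library 2 or 3 (adjusted p up to 0.0992). Against WT 1-cell embryos Gdap1 was not called, and the groups overlapped (log2 0.56, SE 0.36, adjusted p = 0.279).

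Dnm1l was higher in arrested than in cleaved het embryos. It had 176, 109 and 115 CPM in arrested embryos, against 56.6, 21.5 and 21.6 CPM in het 2-cell embryos of the same culture time (log2 2.00, SE 0.44, adjusted p = 0.0178), without overlap. Against het 1-cell embryos its log2 difference was -0.23 (SE 0.43, adjusted p = 0.764), and on the deposited totals it averaged 105 CPM in arrested and 247 CPM in het 1-cell embryos. The call against 2-cell embryos was lost without het 2-cell library 2 or 3 (adjusted p up to 0.0974). When the fit held only the groups compared, 0 genes of the whole table were called in either comparison of arrested with het embryos.

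The arrested libraries were split by several genes, among them Mtfr2, Fis1, Mief2 and Mtfr1. Mtfr1 had 20.3 CPM in library 1 and 58.8 and 100.4 CPM in libraries 2 and 3. Mff was lowest in library 2 instead, with 369, 67.85 and 582.5 CPM in libraries 1 to 3. Mtfr2 had 95.5 CPM in library 1 and 36.0 and 23.5 CPM in libraries 2 and 3. Fis1 had 13.9 CPM in library 1 and 81.9 and 34.6 CPM in the others, and Mief2 had 0 counts in library 1 and 33 and 25 in the others. Library 1 is the one with the low sum of 2-cell-stage markers given above. Its blood and oviduct markers summed to 4.24 and 11.4 CPM, against 196 and 169 CPM in library 2 and 105 and 90.7 CPM in library 3. The part of these differences in the values was not tested. Mtfr2 gave log2 differences of -0.66 (SE 0.46, adjusted p = 0.356) against het 1-cell embryos, with means of 38.7 CPM in arrested and 142 CPM in het 1-cell embryos on the deposited totals, and 1.00 (SE 0.47, adjusted p = 0.181) against het 2-cell embryos. Without arrested library 1 the first was -1.44 (adjusted p = 0.0178), and 3 of 10 genes were called against het 1-cell embryos, namely Mtfr2, Fis1 and Mief2. The same 3 were then called against WT 1-cell embryos. Calls over all genes rose as well without this library. They were 5938 against het 1-cell embryos, from 3283 in the main fit, and 7477 against WT 1-cell embryos, from 4624. Without arrested library 2, Fis1 was also called against het 2-cell embryos, where it was lower (log2 -1.52, adjusted p = 0.0418). Mief2, with 58 counts in arrested and 0 in WT 1-cell libraries, was called against WT 1-cell embryos and is at least 22.3-fold higher over the group, although the groups overlap at 0. This call was lost whichever 1 of the WT 1-cell libraries was left out (adjusted p up to 0.0617).

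**Figure D5:**
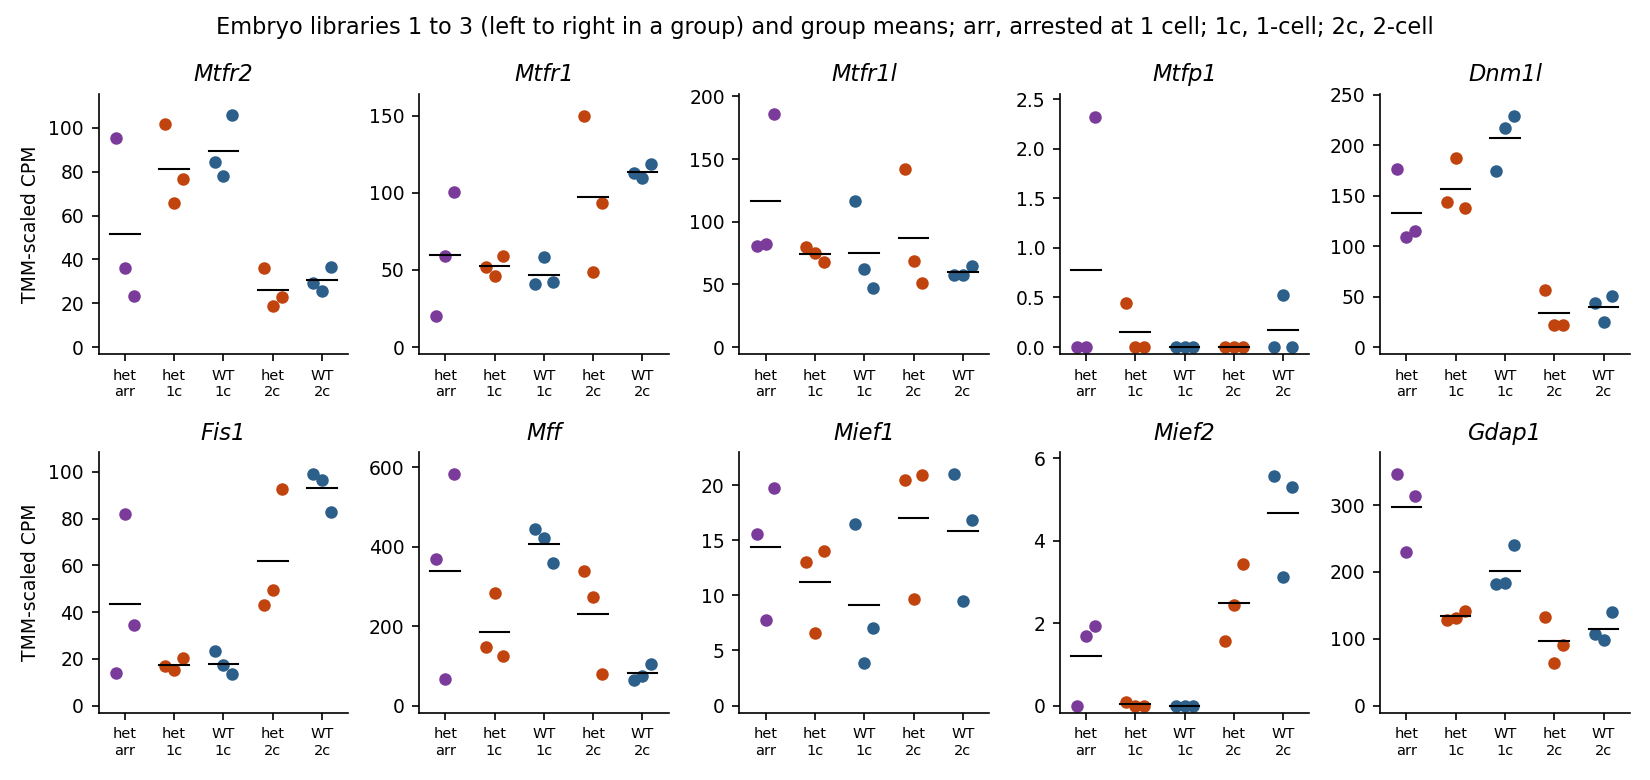
TMM-scaled CPM of the 10 fission genes in the 15 embryo libraries, with points for libraries 1 to 3 from left to right in each group and a line at the group mean. Arrested library 1 has 95.5 CPM of Mtfr2 and 13.9 CPM of Fis1, near the 1-cell libraries, and Dnm1l reaches at most 56.6 CPM in the 2-cell libraries.

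Genes that act on the fission machinery were counted in 3 lists drawn up with earlier results of these data known. The first held 35 modifiers of fission, such as kinases, phosphatases and ubiquitin or SUMO ligases that act on Drp1, and all were found. Of these, 0 were called between genotypes in the translatome, against 4.61% of all genes, and 1 rose in the transcriptome, which is 2.86% of the list, against 2.55% of all genes. This was Fundc2, an outer-membrane protein, at 3.33 CPM in het samples, against 0.574 CPM in WT (log2 2.55, SE 0.60, adjusted p = 0.0420). Of 34 tested in embryos, 0 differed between genotypes at the 1-cell or 2-cell stage, against 0% and 0.00423% of all genes. Between stages 5 rose and 6 fell in het, and 7 rose and 11 fell in WT. These are shares of 32.4% in het and 52.9% in WT, against 36.7% and 46.4% of all genes. Cdk1, the mitotic kinase that phosphorylates Drp1, rose to 329 CPM in het 2-cell embryos, against 39.8 CPM in het 1-cell embryos (log2 3.05, adjusted p = 0.00605). It also rose in WT, to 408.5 CPM, against 30.75 CPM (log2 3.73, adjusted p = 0.00153). In arrested embryos Cdk1 was lower than in het 2-cell embryos, at 58.7 CPM (log2 -2.48, adjusted p = 0.0468). Against het 1-cell embryos, 1 was higher and 4 were lower in arrested embryos, a share of 14.7%, against 13.9% of all genes. The higher one was Fundc1, a mitophagy receptor that binds Drp1, at 110 CPM, against 39.9 CPM in het 1-cell embryos (log2 1.47, adjusted p = 0.0422). Among the lower ones, Plk1, a mitotic kinase, was at 17.5 CPM, against 87.8 CPM (log2 -2.33, adjusted p = 0.00419). Cdk5, a kinase best known in neurons, was at 8.36 CPM, against 37.9 CPM (log2 -2.18, adjusted p = 0.0206), and Senp5, a SUMO protease, at 15.4 CPM, against 53.6 CPM (log2 -1.79, adjusted p = 0.0309). Genes of the 3 lists were not followed singly through the other scalings and fits. With only the groups compared, 0 of all genes were called between arrested and het 1-cell embryos.

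The second list held 20 genes of the ER and actin contacts at fission sites. In the translatome 1 of 19 tested fell in het, which is 5.26%, against 4.61% of all genes: Cfl1, cofilin, which severs actin filaments, at 255 CPM, against 525 CPM in WT (log2 -1.04, SE 0.26, adjusted p = 0.0402). In the transcriptome 2 of 19 were called, which is 10.5%, against 2.55% of all genes. Myh10, a non-muscle myosin, rose to 8.90 CPM in het samples, against 2.78 CPM in WT (log2 1.65, adjusted p = 0.0428), and Rab32, a GTPase that anchors protein kinase A at mitochondria, fell to 34.2 CPM, against 92.0 CPM in WT (log2 -1.43, adjusted p = 0.0124). Between stages 2 rose and 3 fell of 20 in het (25.0%, against 36.7% of all genes), and 2 rose and 7 fell in WT (45.0%, against 46.4%). Spire1, an actin nucleator with a mitochondrial form, fell to 44.8 CPM in het 2-cell embryos, against 259 CPM in het 1-cell embryos (log2 -2.53, adjusted p = 0.00124). The same gene fell to 31.3 CPM in WT 2-cell embryos, against 382 CPM in WT 1-cell embryos (log2 -3.61, adjusted p = 1.34e-04).

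The third list held 18 genes of fusion and its control. None was called between genotypes in the translatome or transcriptome, against 4.61% and 2.55% of all genes. None was called at the 1-cell or 2-cell stage, against 0% and 0.00423% of all genes. Between fractions 4 rose in the het translatome (22.2%, against 8.09% of all genes) and 6 in the WT translatome (33.3%, against 14.6%), and 0 fell. The other lists also had called genes here. Of the 35 modifiers, 6 rose and 0 fell in each genotype (17.1%). Of the 19 ER and actin genes tested, 6 rose and 1 fell in het (36.8%), and 4 rose and 0 fell in WT (21.1%). Mfn1, a GTPase that joins outer membranes, was higher in the translatome in both genotypes, at 70.7 CPM in the het translatome, against 33.2 CPM in the het transcriptome (log2 1.10, adjusted p = 0.0180), and at 106 CPM in the WT translatome, against 47.1 CPM in the WT transcriptome (log2 1.17, adjusted p = 0.00915). Between stages 4 rose and 9 fell in het, a share of 72.2%, against 36.7% of all genes, and 5 rose and 7 fell in WT, a share of 66.7%, against 46.4% of all genes. Oma1, the inner-membrane protease that cleaves Opa1, fell to 1.65 CPM in het 2-cell embryos, against 63.3 CPM in het 1-cell embryos (log2 -5.26, adjusted p = 0.00205), and Yme1l1, the other protease of Opa1, rose to 84.2 CPM, against 20.4 CPM (log2 2.05, adjusted p = 0.00413). Both also changed this way in WT, with log2 changes of -4.08 for Oma1 (adjusted p = 0.00451) and 3.065 for Yme1l1 (adjusted p = 2.91e-04). In arrested against het 1-cell embryos 1 was higher and 3 were lower (22.2%, against 13.9% of all genes). Oma1 was at 3.27 CPM in arrested embryos, lower than in het 1-cell embryos (log2 -4.30, adjusted p = 0.0134).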

How the data were processed

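The authors deposited raw counts of reads per gene, with the 8 GV and the 15 embryo libraries in a table each. Per the submitters' processing notes, the tools were Trim Galore 0.6.4, HISAT2 2.1.0 and featureCounts 1.6.5, and the build was mm10. Strand setting, annotation release and the handling of duplicate or multiply mapped reads: not given in the sources used here. The labels name no molecular identifiers, so intervals and floors cover counting error only. A set of 28 symbols had become spreadsheet numbers and were matched by gene identifier.

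Groups came from the labels. Nothing in them says that replicates are from separate animals, and the p-values measure only sample spread, which may be technical. Counts were tested with edgeR 4.0.16 (quasi-likelihood F test, filterByExpr, TMM) in R 4.3.3, with all 8 GV libraries in 1 model of 4 groups and all 15 embryo libraries in 1 model of 5 groups. All 10 genes passed the filter in both tables. Adjustment was by Benjamini-Hochberg over all genes tested, with 0.05 as the threshold for a call. Log2 differences have an SE derived from the F statistic. CPM per kb uses the union of annotated exons in GENCODE M21 (mm10). The script was tested on simulated data.

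The sample descriptions pair the fractions of an oocyte sample by a shared number. Over 9075 genes the deviations from the group mean correlated within pairs at 0.26 in het and 0.06 in WT. The pairing entered as an alternative, beside DESeq2 1.42.0, RLE scaling, no low-count filter, fits of the groups compared, fits without each library, and het 1-cell library 2 alone.

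The genes, lists, comparisons and tests were chosen with earlier results of these data known. The rule for names was all 10 genes in each comparison, Eif4enif1, up to 3 called genes by smallest p in each direction of each list, and the 4 genes most like Mtfr2. Of the list genes under this rule, the text gives a part, chosen after their values were seen. Protein sequences were not used here.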

Additional observations from a re-analysis of the deposited data

Results flagged for a closer look

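Mtfr2 in GV oocytes moved in opposite directions in the 2 fractions. Both het libraries were below both WT libraries in the translatome, and both het libraries were above both WT libraries in the transcriptome. The log2 difference between the fraction ratios, het minus WT, was -2.65 (SE 0.34). This difference was not tested, because Mtfr2 was chosen for its values in these comparisons. Over the fits that left out 1 GV library it ran from -2.74 to -2.53. This range comes from the values used to choose Mtfr2, so it describes them only. Groups of 2 or 3 libraries are too small for a check of single outlying libraries.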

How the results depend on the processing

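Over the alternatives, 2169 of the values for single genes were counted as kept, 51 moved, 14 passed the threshold and 53 lost it. None that was called changed direction. Values not called or not tested were kept if they changed by at most 1 SE, whatever their sign. Mtfr1l in the translatome, for example, was -0.13 in the main fit and 0.01 without WT translatome library 2. Members called were 1 in the translatome and 2 in arrested against het 1-cell embryos with DESeq2, 2 in the same arrested comparison with RLE scaling, and, without the filter, 1 between fractions in WT and 1 in arrested against het 2-cell embryos. With only the groups compared they were 0 in all 3 arrested comparisons, where 0, 0 and 579 of all genes were called. With het 1-cell library 2 alone they were 0 in arrested against het 1-cell embryos and 1 between stages in het, which was Dnm1l. Leaving out each library in turn gave 0 to 1 between fractions in WT, 0 to 3 in each of the 3 arrested comparisons, 2 to 4 between stages in het, 3 to 7 between stages in WT, and 0 in the other 7 comparisons. Over all genes, the fits without 1 embryo library called 1222 to 5938 in arrested against het 1-cell embryos. They called 2 to 4004 against het 2-cell and 1940 to 7477 against WT 1-cell embryos. On deposited totals Mtfr2 was 114 CPM in the het transcriptome and 142 CPM in het 1-cell embryos.

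With the replicate number as a replicate block, the members called were 0 in arrested against het 1-cell embryos, and other members' counts stayed within 1.5 times. Same-numbered libraries of the embryo groups did not deviate together, with correlations of -0.40 to 0.26 in 30 pairs, 4 of them over 0.1. Same-numbered het and WT libraries correlated at -0.34 in the translatome and -0.44 in the transcriptome. A crossed pairing, chosen after seeing the data, called 1611 and 1169 genes there. The replicate block called 670 genes in the translatome, 1909 in arrested against het 1-cell, 3037 in arrested against WT 1-cell embryos and 0 in stage by genotype.

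All genes called with DESeq2 were 1860 in the translatome, 1423 in the transcriptome, 112 for fraction by genotype, 2760 between fractions in het, 5944, 5073 and 7280 in the arrested comparisons and 126 for stage by genotype. Without the filter they were 2113, 1554, 108 and 2883 in the first 4 of these, and 2 between genotypes at the 2-cell stage. With only the groups compared they were 3033 between fractions in het and 1570 in WT, 0 between genotypes at the 2-cell stage and 3 for stage by genotype. With het 1-cell library 2 alone they were 104 in arrested against het 1-cell embryos, 2017 between stages in het and 0 for stage by genotype. RLE scaling moved the share of called genes that were higher in het in the transcriptome to 65.7%, against 55.4% with TMM. It moved the median of all genes by -0.13 in arrested against het 2-cell embryos. The cause of these differences was not tested. Depth limits Mief2 and Mtfp1, whose counts were near 0 in most libraries.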

Other observations

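Genes with a CPE in the last 100 bases of the annotated 3′UTR, as in Mtfr2, were counted apart from genes without one. Between the 2-cell and 1-cell stages in WT, 28.1% of 2749 genes with the element fell, against 18.8% of 11790 genes without it, with median log2 changes of -0.43 and 0.51. In het these shares were 22.4% and 15.2%, with medians of -0.37 and 0.28. In oocytes the het over WT medians were -0.07 with and 0.01 without the element in the translatome, and 0.03 and -0.05 in the transcriptome. The medians of the difference between fraction ratios were -0.07 and 0.11. These are descriptions over annotated ends, genes are not independent replicates, and no test was run.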
